A study of Mus musculus with 10 samples.

Results

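De novo fatty acid synthesis in the lactating mammary gland was followed through 10 genes: Acaca, Acly, Fasn, Me1, Srebf1, Thrsp, Elovl5, Elovl6, Scd1 and Scd2. A probeset, the group of short probes that reads 1 transcript on an Affymetrix chip, belonged to the set if the platform annotation gave it exactly 1 gene symbol and that symbol was a member. This rule found 21 of the 22626 probesets other than controls, for 10 of the 12393 genes named in this way. The arrays held mammary gland RNA of 5 QSi5 and 5 CBA (CBA/CaH) mice, 1 mouse per array, on day 9 of the first lactation. QSi5 is an inbred strain of Quackenbush-Swiss origin bred for fecundity, and CBA is an inbred strain without that selection. All dams were previously nulliparous and were mated to males of their own strain at breeding age, with no age at collection given in the sources used here. The labels name no transgene, drug or diet, and the series record states that all dams were force weaned before the glands were taken. The comparison asked which transcripts differed between a strain of high and a strain of lower maternal performance.

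The lactating mammary gland makes much of its milk fat from glucose. Citrate exported from mitochondria is split to cytosolic acetyl-CoA, which is carboxylated to malonyl-CoA and joined into saturated fatty acids with NADPH as the reductant, and these chains are then elongated and desaturated at the endoplasmic reticulum. The transcription factor encoded by Srebf1 is known to activate many genes of this pathway, and in mammary cells chain growth is ended early by a dedicated thioesterase, so that milk fat is rich in medium-chain fatty acids.

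Values were log2 intensities made by RMA, on which a difference of 1 is a doubling. A probeset was tested if its unlogged strain mean was above 20 (4.32 on the log2 scale) in at least 1 strain. Of the 21 member probesets 19 passed, with at least 1 for each of the 10 genes, and 11412 probesets of 7361 genes passed in all. A probeset was called if its Benjamini-Hochberg adjusted p from limma, taken over the 11412 probesets, was under 0.05. Each strain difference is the QSi5 mean less the CBA mean, in log2 units, for n = 5 mice per strain, and the number of arrays limits their precision. Levels of different probesets were not compared, because probes differ in how brightly they read. The glands were bulk tissue, so a lower value from fewer cells of a type and one from less RNA per cell cannot be told apart.

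Of the 19 tested member probesets, 1 was called higher in QSi5 mice, for Acaca, and 0 were called lower or had a 95% CI below 0. The called share was 5.26% of the members and 2.94% of all tested probesets. That single call was of a probeset whose CBA mean lay below the intensity minimum, tested through its QSi5 values alone, so the share is a description only. At an unadjusted p under 0.01 there were 2 member probesets, for Acaca and Elovl5, and 6.49% of all probesets passed that threshold. In the same 2 probesets every QSi5 mouse lay above every CBA mouse, an order found in 2.51% of all probesets, and in 0 did every QSi5 mouse lie below. The difference was positive in 13 of the 19, with a median of 0.10 against 0.001 over all tested probesets. Without CBA replicate 1 the number of positive differences was 9 and the median was -0.09. Spread between mice was wide in these genes with all mice included. The residual SD of 19 of the 19 probesets lay above 0.22, the median over all probesets. Without CBA replicate 1 the CBA SD fell from 0.60 to 0.15 for Fasn and from 0.68 to 0.15 for Thrsp 1424737_at. It fell from 0.55 to 0.13 for Elovl5 1437211_x_at, and was still 0.77 and 1.19 on the Scd1 probesets.

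CBA replicate 1 stood apart from the other CBA mice in these genes, and its values are given first because most results below touch it. It was the lowest CBA mouse in 12 of the 19 member probesets (63.2%), against 17.4% of all probesets, and the lowest of all 10 mice in 9. On the brightest probeset of each gene it was the lowest CBA mouse for 7 of the 10 genes, the others being Acaca, Me1 and Scd1. Averaged over those 10 probesets, its deviation from the gene means was -0.88, and the other CBA mice ranged from -0.08 to 0.22. It was also the lowest of all mice in some of the neighbouring lists described below. These were carbon supply (-0.51, other mice -0.19 to 0.35), control of carboxylation (-0.17, -0.13 to 0.29) and elongation and desaturation (-0.20, -0.19 to 0.28). For NADPH supply, release and activation, and lipogenic regulators (-0.02, -0.02 and -0.002) it lay inside the range of the others. In QSi5 mice the comparable animal was QSi5 replicate 2, the lowest of its strain in 15 of 19 member probesets (78.9%) against 31.1% of all probesets, with a mean deviation of -0.36 where the other QSi5 mice ranged from 0.18 to 0.35.

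Transcripts known to rise at the onset of involution, the regression of the gland after weaning, moved in the opposite direction in CBA replicate 1. Of the 7 listed involution genes 5 were tested, each by its brightest probeset. Their mean deviation was 1.81 in this mouse and between -0.57 and 0.45 in the other 9. QSi5 replicate 2, which was low in the members, was at -0.11. CBA replicates 2 and 3, at 0.18 and 0.22 in the members, were at 0.45 and 0.24 in the involution genes. Igfbp5, a binding protein for insulin-like growth factors, read 10.10 in CBA replicate 1 and from 5.47 to 8.14 in the others. Stat3, a transcription factor of involution, read 9.46 against 7.10 to 8.37. The summed unlogged intensity of the 5 genes ran from 405 to 2507 in CBA mice, from 405 to 853 without CBA replicate 1, and from 396 to 581 in QSi5 mice. Lif and Mmp3 were below the intensity minimum. The part of these transcripts in the member values was not tested. No time between the forced weaning and collection is given in the sources used here.

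Keratins of the secretory epithelium were high in this mouse, and the milk protein transcripts, on their brightest probesets, mostly lay close together in all mice. Some dimmer casein probesets varied more. The dimmer one for Csn3 read 7.91 in CBA replicate 1, 6.03 to 7.27 in the other CBA mice and 7.47 to 8.59 in QSi5 mice. Its strain difference was 0.97 (95% CI 0.28 to 1.65, limma adjusted p = 0.153), which was not called. For Csn1s2a the probesets other than the brightest differed by 0.94 (adjusted p = 0.150), 0.47 (adjusted p = 0.430) and -0.002. The dimmer one for Csn2 differed by 0.002. The 10 secretory epithelium genes (10 of 10 tested) summed to between 109267 and 120616 in CBA mice, with CBA replicate 1 at 116231, and to between 113832 and 124428 in QSi5 mice. Averaged on the log2 scale, where each gene counts equally, the deviation of CBA replicate 1 was 0.16 and that of the other 9 mice -0.09 to 0.10. Krt8 read 9.47 in CBA replicate 1 and from 7.99 to 9.01 in the others, and Krt18 read 8.82 against 7.19 to 8.32. Lalba was also highest among the CBA mice in this one, at 13.33 against 12.96 to 13.32, and lower than in every QSi5 mouse. Myoepithelial markers (5 of 6 tested) had a mean deviation of 0.58 in CBA replicate 1, 0.51 in QSi5 replicate 2 and -0.63 to 0.28 in the other mice. The part of these markers in the member values was not tested. Csn2, which encodes beta-casein, averaged 13.85 ± 0.07 (SD, n = 5) in CBA and 13.85 ± 0.09 in QSi5 mice. The difference was 0.004, and its sign turned when the arrays were centred on their medians. Strain means of the brightest casein probesets ran from 13.64 to 14.05. Whether these probesets read near the upper limit of the arrays was not tested, so their close values do not show equal casein RNA. The same limit holds for the summed intensity of the secretory epithelium genes, which includes them. Adipocytes also make fatty acids, and 7 of the 10 adipocyte markers were tested. Their summed intensity ran from 1593 to 3728 in CBA and from 2051 to 3176 in QSi5 mice, and the mean deviation of CBA replicate 1 was -0.28, within the range of the other mice (-0.47 to 0.48). The adipocyte hormone gene Adipoq was read in every mouse and differed by -0.07 (95% CI -0.72 to 0.58), with a positive value, 0.09, when the arrays were weighted by quality. Fabp4, the adipocyte fatty acid binding protein, was lower in QSi5 mice by -0.73 (SE 0.23, limma adjusted p = 0.132), and it was called where the fit blocked on chip type (adjusted p = 0.0383). The adipocyte markers did not share a direction. Car3 differed by 0.58 (limma adjusted p = 0.350), and by 0.67 (0.254) on its dimmer probeset, and Lep by 0.09. Retn, Lipe and Plin4 differed by -0.11, -0.15 and -0.16. The part of adipocyte RNA in the member values was not tested.

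**Figure D1:**
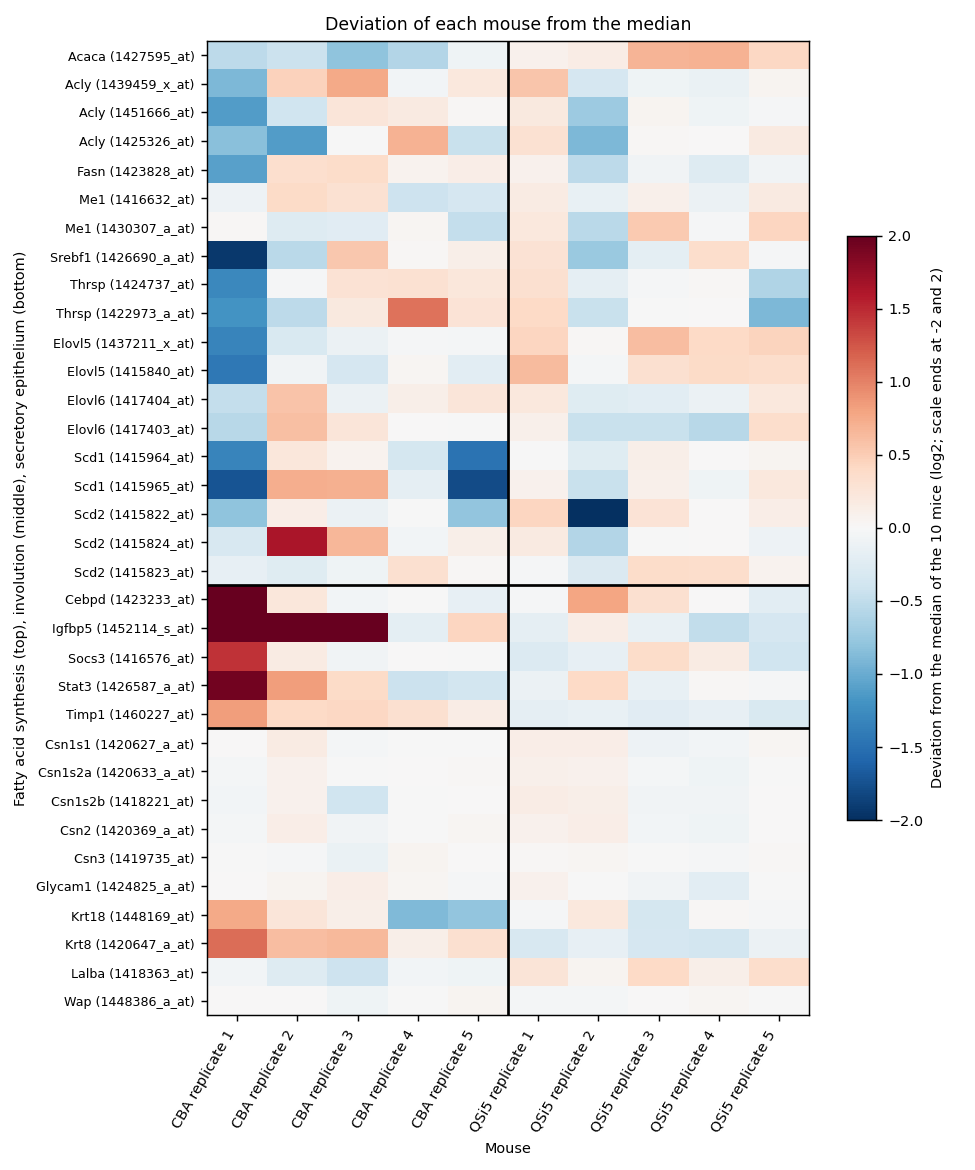
Deviation of each mouse (columns) from the median of the 10 mice, in log2 units by colour with the scale ending at -2 and 2, for the 19 tested probesets of the fatty acid synthesis genes (top), 5 involution genes (middle) and 10 secretory epithelium genes (bottom). CBA replicate 1 is blue in most of the top block and red throughout the middle block, and QSi5 replicate 2 is mostly pale to dark blue in the top block, while the casein and Wap values of the bottom block are mostly near 0.

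The promoters of Elovl5, Fasn and Thrsp are shown because in these genes CBA replicate 1 lay outside the other CBA mice by Dixon's test for a single extreme value. They are the 250 bases before the annotated start, from RefSeq on GRCm38.p6, written 5′ to 3′ on the strand of the gene. Capitals mark matches to CACGTG, an E-box, and to CCAAT on either strand (read as ATTGG on the other). In Fasn the forward and reverse matches of CCAAT overlap in the run CCAATTGG.
Elovl5, chr9:77917115-77917364, plus strand: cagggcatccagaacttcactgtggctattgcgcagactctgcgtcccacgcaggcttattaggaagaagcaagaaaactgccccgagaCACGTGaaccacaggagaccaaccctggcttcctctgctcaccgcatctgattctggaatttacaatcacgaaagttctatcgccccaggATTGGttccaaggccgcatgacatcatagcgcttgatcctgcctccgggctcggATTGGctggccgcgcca
Fasn, chr11:120824548-120824797, minus strand: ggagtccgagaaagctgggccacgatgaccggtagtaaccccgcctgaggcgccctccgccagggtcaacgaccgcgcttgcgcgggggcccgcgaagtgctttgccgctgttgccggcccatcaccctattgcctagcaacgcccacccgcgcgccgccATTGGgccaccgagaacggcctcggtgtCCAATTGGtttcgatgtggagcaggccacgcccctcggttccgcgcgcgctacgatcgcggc
Thrsp, chr7:97417551-97417800, minus strand: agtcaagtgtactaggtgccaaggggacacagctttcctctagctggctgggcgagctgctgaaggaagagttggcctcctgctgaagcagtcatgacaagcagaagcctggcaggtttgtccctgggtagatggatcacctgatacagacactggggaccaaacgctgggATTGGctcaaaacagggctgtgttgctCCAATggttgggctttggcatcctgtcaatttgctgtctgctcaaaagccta
RefSeq promoter windows, from 250 bases before to 50 bases after a start, were found for 8 of the 10 genes and gave 11 windows. Scd1 and Scd2 were not matched. CCAAT, the motif bound by the NF-Y factor, was found on either strand in 7 of the 11 windows (63.6%) and in 37.4% of all 32851 windows. These 7 belonged to Acly, Fasn, Me1, Srebf1, Thrsp and Elovl5. CACGTG was found in 1 window (9.09%), that of Elovl5, and in 7.15% of all windows. The GC box GGGCGG was found in 4 (36.4%) and in 35.7% of all windows. TCACNCCAC, written for the sterol regulatory element, was found in 0 of the 11 and in 1.24% of all windows. A match is a run of letters in a window and not a measured binding site, and windows of 1 gene are not independent. Only the letters given were searched for, so a window without a match may still hold a variant of the motif.

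Acaca, which encodes acetyl-CoA carboxylase 1, the enzyme that makes malonyl-CoA in the cytosol and the committed step of the pathway, was the member called between strains. Its single probeset (1427595_at) read 4.02, 4.12, 3.75, 3.97 and 4.47 in CBA replicates 1 to 5 and 4.63, 4.70, 5.24, 5.25 and 4.97 in QSi5 replicates 1 to 5. The strains did not overlap, and CBA replicate 1 lay inside the range of its own strain. The means were 4.07 ± 0.26 (SD, n = 5) in CBA and 4.96 ± 0.29 in QSi5 mice. QSi5 mice were higher by 0.89 (SE 0.16, 95% CI 0.54 to 1.24, limma adjusted p = 0.00985). The CBA mean lay below the intensity minimum, so this probeset was tested through its QSi5 values alone, which builds a strain difference into its selection, and no fold is given. Unlogged, the means were 16.8 and 31.0, both dim on these arrays. The difference was 0.998 on the MOE430 2.0 chips, with 3 mice per strain, and 0.73 on the MOE430A 2.0 chips, with 2 per strain, where it was not called (adjusted p = 0.295). With a minimum of 50 the probeset was not tested.

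Acly, which encodes ATP citrate lyase and makes cytosolic acetyl-CoA from citrate, had 5 probesets, of which 3 were tested. The brightest (1439459_x_at) read 9.64, 11.01, 11.29, 10.49 and 10.75 in CBA replicates 1 to 5 and 11.10, 10.21, 10.46, 10.40 and 10.59 in the QSi5 mice. CBA replicate 1 was the lowest of the 10 mice and CBA replicate 3 the highest, so the QSi5 values lay inside the CBA range. The strain difference was -0.08 (SE 0.27, 95% CI -0.68 to 0.51, limma adjusted p = 0.921), and it was 0.19 on the MOE430 2.0 and -0.49 on the MOE430A 2.0 chips. The other tested probesets differed by 0.10 (95% CI -0.46 to 0.66) for 1451666_at and 0.26 (-0.44 to 0.96) for 1425326_at. All 3 intervals included 0, and the signs differed between the probesets. Pearson correlation between pairs of them over the 10 arrays was 0.748, 0.271 and 0.782. The 2 probesets below the minimum (1439445_x_at and 1438389_x_at) read from 1.89 to 2.26.

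Fasn, the multifunctional fatty acid synthase that builds the chain from malonyl-CoA, had 1 probeset (1423828_at). The CBA mice read 10.44, 11.86, 11.90, 11.59 and 11.67 and the QSi5 mice 11.62, 11.01, 11.46, 11.28 and 11.47. CBA replicate 1 was the lowest of all mice, and the other CBA mice lay close together, near or above the highest QSi5 mouse. Over all mice the means were 11.49 ± 0.60 in CBA and 11.37 ± 0.23 in QSi5 mice, and the difference was -0.12 (SE 0.25, 95% CI -0.67 to 0.42, limma adjusted p = 0.869). Without CBA replicate 1 the CBA SD fell to 0.15 and the difference was -0.39 (SE 0.14, 95% CI -0.69 to -0.08, adjusted p = 0.216), which was not called. The chip types gave opposite signs, with 0.17 on MOE430 2.0 and -0.57 on MOE430A 2.0.

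Me1, which encodes cytosolic malic enzyme and supplies NADPH, showed a different order of mice. The brighter probeset (1416632_at) read 10.34, 10.82, 10.74, 10.02 and 10.11 in the CBA mice and 10.60, 10.29, 10.54, 10.33 and 10.62 in the QSi5 mice. CBA replicate 1 lay in the middle of its strain. The strain difference was 0.07 (95% CI -0.29 to 0.43, limma adjusted p = 0.885), with 0.34 on MOE430 2.0 and -0.34 on MOE430A 2.0 chips. The other probeset (1430307_a_at) differed by 0.30 (95% CI -0.11 to 0.72, adjusted p = 0.510), and the correlation between the probesets was 0.261 over the 10 arrays.

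**Figure D2:**
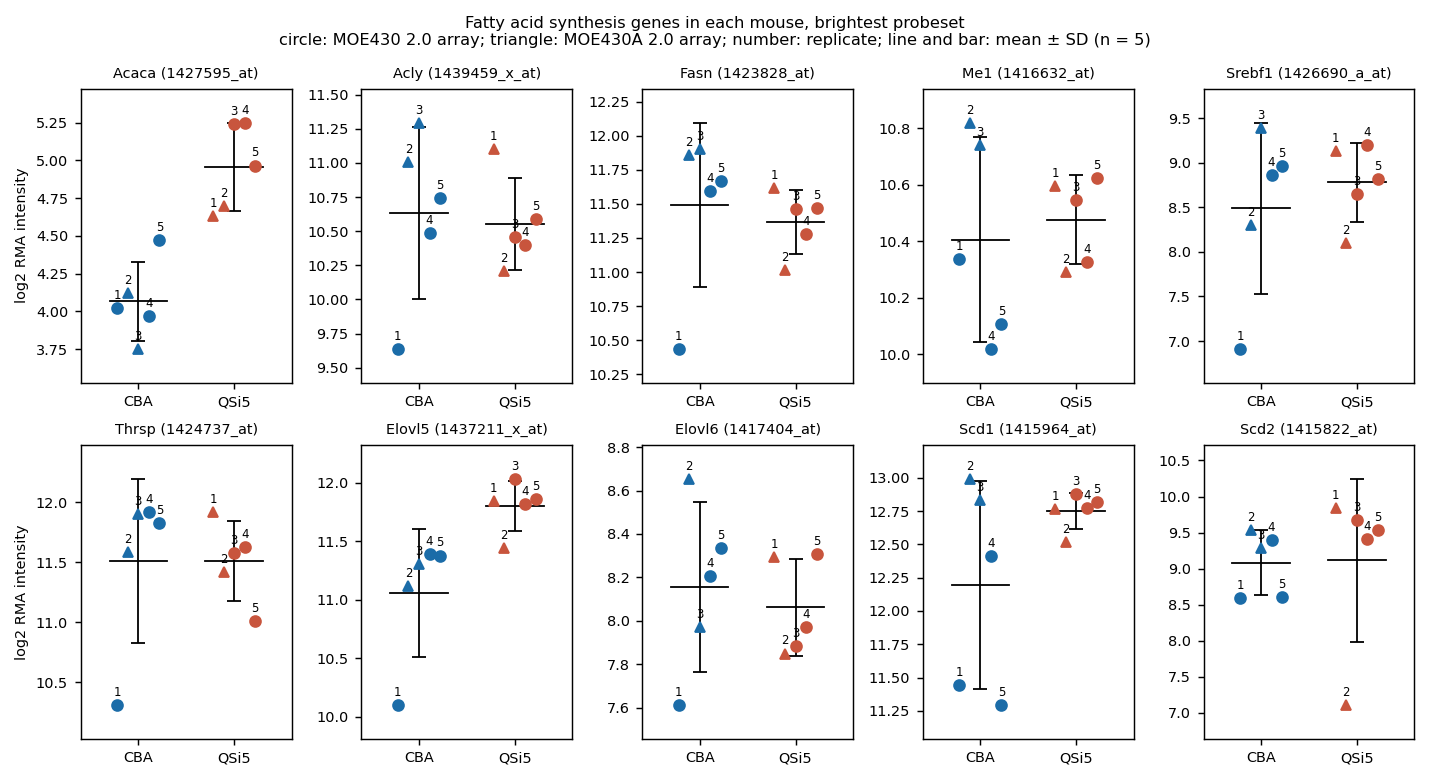
Log2 RMA intensity of the brightest probeset of each of the 10 genes in each mouse, with replicate numbers, chip type by symbol, and the mean ± SD of 5 mice per strain as lines and bars; each panel has its own axis, which does not start at 0. The strains are apart in the Acaca and Elovl5 panels and overlap in the others, and CBA replicate 1 is the lowest CBA mouse in 7 panels.

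Srebf1, the sterol regulatory element binding transcription factor that activates lipogenic genes, had 1 probeset (1426690_a_at). It read 6.91, 8.30, 9.39, 8.87 and 8.97 in the CBA mice and 9.13, 8.10, 8.65, 9.20 and 8.82 in the QSi5 mice. CBA replicate 1 was the lowest mouse by over 1 log2 unit, and QSi5 replicate 2 was the next lowest. Its distance from the mean of the other CBA mice, -1.97, was the largest of the members in size. The strain difference was 0.29 (SE 0.39, 95% CI -0.56 to 1.15, limma adjusted p = 0.787), and without CBA replicate 1 it was -0.10.

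Thrsp, also called Spot 14, a small acidic protein tied to lipogenesis in liver, fat and mammary gland, had 2 probesets. The brighter (1424737_at) read 10.31, 11.59, 11.90, 11.92 and 11.83 in the CBA mice and 11.92, 11.42, 11.58, 11.63 and 11.01 in the QSi5 mice. CBA replicate 1 was again the lowest of all mice, followed by QSi5 replicate 5. Both strains averaged 11.51, with SDs of 0.68 in CBA and 0.33 in QSi5 mice, and the 95% CI of the difference ran from -0.63 to 0.63 (limma adjusted p = 0.9995). Without CBA replicate 1 the difference was -0.30, and centring the arrays on their medians gave -0.01. The other probeset (1422973_a_at) differed by -0.16 (95% CI -0.96 to 0.65), and the 2 probesets correlated at 0.867 over the 10 arrays.

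Elovl5, an elongase of polyunsaturated fatty acids, was the other member whose strains were apart. The brighter probeset (1437211_x_at) read 10.10, 11.11, 11.30, 11.39 and 11.38 in the CBA mice and 11.85, 11.44, 12.03, 11.82 and 11.86 in the QSi5 mice. The lowest QSi5 mouse, replicate 2, lay just above the highest CBA mouse, and CBA replicate 1 lay a full unit below the rest of its strain. The difference was 0.74 (SE 0.23, 95% CI 0.25 to 1.24, unadjusted p = 0.0068 and limma adjusted p = 0.128), 1.67-fold, and was not called. The other probeset (1415840_at) read 9.25, 10.61, 10.34, 10.70 and 10.47 in the CBA mice and 11.31, 10.64, 10.99, 11.06 and 11.02 in the QSi5 mice. Here QSi5 replicate 2 lay below CBA replicate 4, so the strains overlapped. Its difference was 0.73 (SE 0.24, 95% CI 0.20 to 1.26, adjusted p = 0.166). The probesets correlated at 0.952 over the 10 arrays.

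The Elovl5 differences shrank without CBA replicate 1, but not to 0. They were then 0.50 (SE 0.13, 95% CI 0.22 to 0.79, limma adjusted p = 0.0833) and 0.47 (adjusted p = 0.131). Without both CBA replicate 1 and QSi5 replicate 2, an alternative chosen after seeing the data, they were 0.59 (adjusted p = 0.0231) and 0.56 (adjusted p = 0.0517). QSi5 mice were higher on both chip types, with 0.95 on MOE430 2.0 and 0.44 on MOE430A 2.0 chips for the brighter probeset.

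Elovl6, the elongase of palmitate and other saturated chains, was not called on either of its 2 probesets. Its brighter probeset (1417404_at) ranged from 7.61 in CBA replicate 1 to 8.65 in CBA replicate 2, with the QSi5 mice between 7.85 and 8.31. The strain difference was -0.09 (95% CI -0.49 to 0.30, limma adjusted p = 0.861), and the other probeset (1417403_at) gave -0.25 (-0.75 to 0.24). The difference between the responses of the 2 elongases was not tested. The Elovl6 probesets correlated at 0.844 over the 10 arrays.

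Scd1, the main delta-9 desaturase, which makes oleate and palmitoleate, varied widely among the CBA mice. The brighter probeset (1415964_at) read 11.45, 12.99, 12.83, 12.41 and 11.29 in CBA replicates 1 to 5 and 12.76, 12.52, 12.88, 12.77 and 12.82 in the QSi5 mice. CBA replicates 1 and 5 lay about a log2 unit below the remaining mice, and the QSi5 mice lay close together near the upper CBA values. The means were 12.20 ± 0.78 (SD, n = 5) in CBA and 12.75 ± 0.14 in QSi5 mice. The difference was 0.56 (SE 0.30, 95% CI -0.10 to 1.21, limma adjusted p = 0.426). The other probeset (1415965_at) correlated with it at 0.963 over the 10 arrays and had a CBA SD of 1.25 and a QSi5 SD of 0.26. It differed by 0.42 (SE 0.47, 95% CI -0.61 to 1.45, adjusted p = 0.733).

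The chip types gave opposite signs for Scd1. On MOE430 2.0 chips, which held both low CBA mice, the differences were 1.11 and 1.31, and on MOE430A 2.0 chips they were -0.27 and -0.91. The interaction of strain and chip type was 1.38 and 2.22 log2 units, with a limma adjusted p of 0.886 for both. For this interaction 0 of the 11412 probesets were called, 620 had an unadjusted p under 0.05, and 106 (0.929%) had one under 0.01. Of the 19 member probesets 3 were among the 106, both of Scd1 and 1 of Scd2 (1415824_at). Chip type and the mice hybridised to it cannot be told apart here.

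Scd2, a desaturase known to be widely expressed in the mouse, had 3 tested probesets that did not move together. On the brightest (1415822_at) the CBA mice read 8.60, 9.53, 9.29, 9.40 and 8.61 and the QSi5 mice 9.84, 7.11, 9.67, 9.41 and 9.54. QSi5 replicate 2 was the lowest by over 1 log2 unit, and the remaining QSi5 mice lay near or above the upper CBA values. The strain difference was 0.03 (SE 0.45, 95% CI -0.95 to 1.01, limma adjusted p = 0.983), and it was 0.53 without QSi5 replicate 2. The others gave -0.51 (95% CI -1.19 to 0.17) for 1415824_at and 0.13 (-0.20 to 0.45) for 1415823_at. Both of these were dim, close to the intensity minimum of 20. Their unlogged means in CBA and QSi5 mice were 31.4 and 22.0 for 1415824_at and 24.6 and 26.8 for 1415823_at. The difference of 1415824_at was 0.05 on MOE430 2.0 and -1.35 on MOE430A 2.0 chips, an interaction of 1.41 log2 units (limma adjusted p = 0.886). Pairs of the 3 probesets correlated at 0.488, 0.534 and -0.23 over the 10 arrays.

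**Figure D3:**
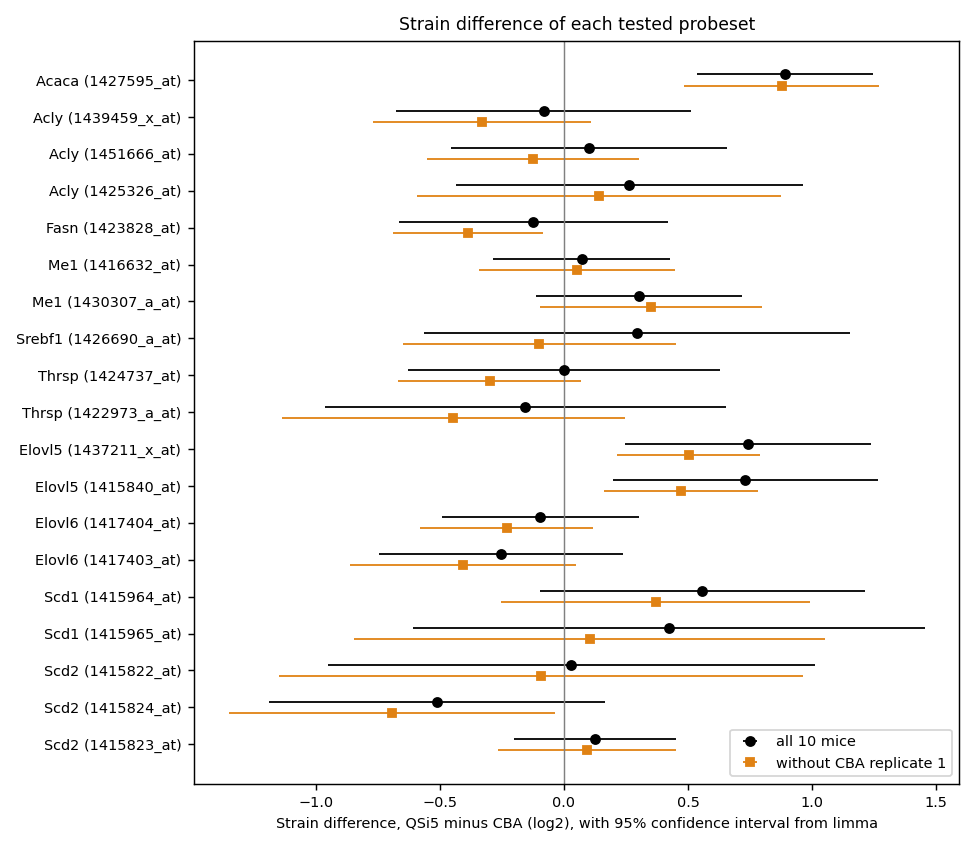
Strain difference (QSi5 minus CBA, log2) of the 19 tested member probesets with its 95% confidence interval from limma, over all 10 mice (black circles, n = 5 per strain) and without CBA replicate 1 (orange squares, 4 against 5). The black intervals of Acaca and of both Elovl5 probesets lie above 0 and the other 16 include 0; without CBA replicate 1 the intervals of Fasn and of Scd2 1415824_at lie below 0, though neither was called after adjustment.

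The rest of the pathway was described with 6 lists holding 69 genes, of which 50 were tested, each by its brightest probeset. Of these 50 genes 0 were called higher in QSi5 mice, 1 was called lower and 49 were not called. Over all 7361 genes 97 were called higher and 102 lower, 2.7% in all. An unadjusted p under 0.01 was found for 4 of the 50, and for 466 of all genes (6.33%). Median strain differences of the lists were 0.22 for carbon supply (5 of 7 genes tested), -0.26 for NADPH supply (7 of 8), 0.05 for control of carboxylation (6 of 12), -0.09 for chain release and activation (4 of 6), 0.04 for elongation and desaturation (14 of 19) and -0.04 for lipogenic regulators (14 of 17). The median was 0.05 over the 10 member genes and 0.004 over all genes. Without CBA replicate 1 it was -0.10 over the member genes, 0.15 for carbon supply, -0.33 for NADPH supply, 0.11 for control of carboxylation and 0.01 over all genes, and the other 3 list medians kept their sign.

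Rpia, the ribose 5-phosphate isomerase of the pentose phosphate pathway, was the gene called lower. It read 6.70, 6.99, 7.39, 6.40 and 6.39 in the CBA mice and 6.29, 4.96, 5.87, 5.82 and 5.79 in the QSi5 mice, without overlap. The difference was -1.03 (SE 0.25, limma adjusted p = 0.0464), close to the threshold, and the gene was called in 10 of 23 alternatives. In the same list Idh1, the cytosolic NADP-dependent isocitrate dehydrogenase, read from 6.34 to 6.89 in CBA and from 6.13 to 6.29 in QSi5 mice. Its difference was -0.33 (SE 0.11, adjusted p = 0.176), which was not called. Rpia was lowest in QSi5 replicate 2, and without that mouse its difference was -0.83. It was not called without that mouse, or without any 1 of CBA replicates 1, 2 and 3 and QSi5 replicates 3, 4 and 5.

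Olah, the thioesterase that releases medium-chain fatty acids from fatty acid synthase in the mammary gland, came close to the threshold. It read 11.77, 11.62, 11.57, 11.09 and 11.58 in the CBA mice and 11.08, 11.25, 10.77, 10.87 and 10.86 in the QSi5 mice. Only CBA replicate 4 lay within the QSi5 range. The difference was -0.56 (SE 0.14, limma adjusted p = 0.0579), another probeset gave -0.60 (adjusted p = 0.0958), and a fit that blocked on chip type called the first (adjusted p = 0.0365). Acsl4, an acyl-CoA synthetase that prefers arachidonate, had a difference of -1.03 (SE 0.30, adjusted p = 0.107), and its 2 dimmer probesets gave -0.81 and 0.07. That fit called Acsl4 too (adjusted p = 0.0228).

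Other named genes of the lists did not pass the test. Among the regulators Usf1, which binds E-boxes, read from 5.09 to 5.22 in CBA and from 5.32 to 5.59 in QSi5 mice, a difference of 0.28 (SE 0.09, limma adjusted p = 0.144). Scap, the escort protein of the Srebf1 and Srebf2 products, differed by -0.45 (adjusted p = 0.294). Acss2, the cytosolic acetyl-CoA synthetase, differed by 0.40 (adjusted p = 0.596) and Pcx, pyruvate carboxylase, by 0.28 (adjusted p = 0.353). Acacb, the carboxylase that controls fatty acid entry into mitochondria, differed by 0.32 (adjusted p = 0.548) and Mlycd, malonyl-CoA decarboxylase, by -0.24 (adjusted p = 0.624). Tecr and Hacd3, of the elongation cycle, differed by 0.42 and -0.45 (adjusted p = 0.427 and 0.297). Fads1, the delta-5 desaturase, was named after its values were seen, because its difference of -0.36 (adjusted p = 0.349) became -0.53 without CBA replicate 1 and was then called (adjusted p = 0.0303).

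**Figure D4:**
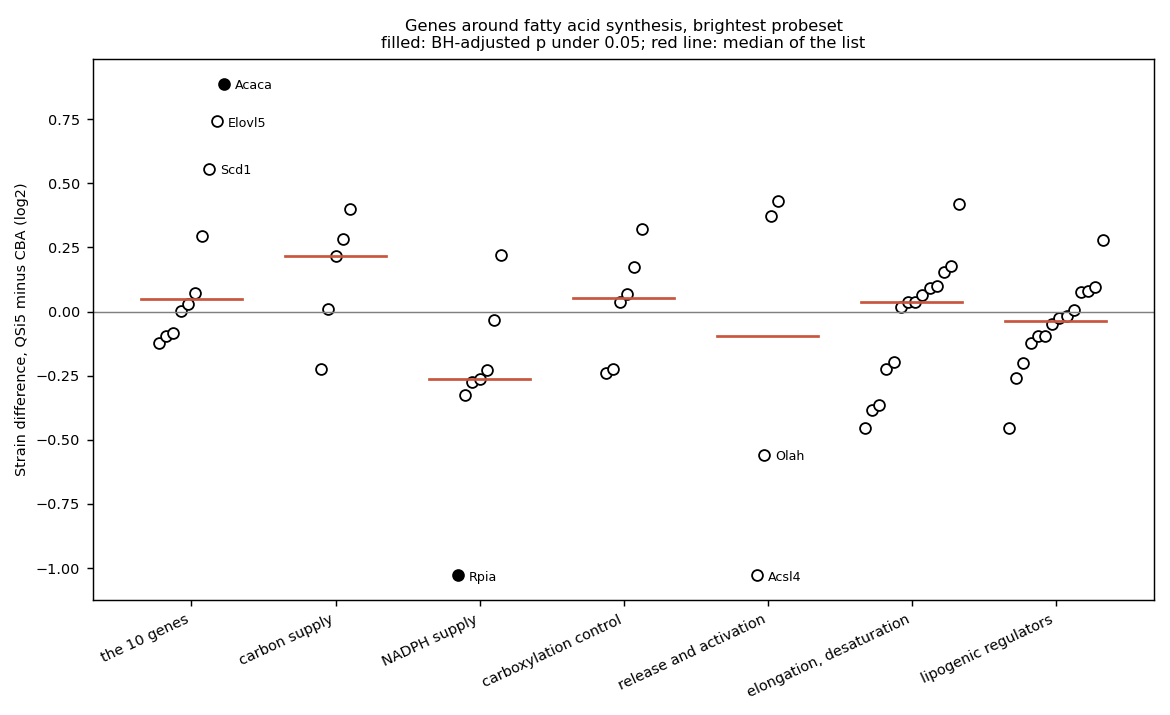
Strain difference (QSi5 minus CBA, log2, n = 5 mice per strain) of each tested gene by its brightest probeset, for the 10 member genes and the 6 lists around them; filled points have a limma adjusted p under 0.05 and red lines are list medians. Acaca at 0.89 and Rpia at -1.03 are the filled points, and the medians of all columns lie between -0.26 and 0.22. All points include CBA replicate 1. The fit without that mouse is not drawn, and in it the median of the member genes was -0.10.

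The genes most like the mean profile of the 10 brightest member probesets were sought among 7351 other genes by Pearson correlation over 10 arrays. They were Psat1 (0.922), a serine synthesis enzyme, Fig4 (0.914), a phosphoinositide phosphatase, Bscl2 (0.906), which encodes the lipid droplet protein seipin, Fads2 (0.896), the delta-6 desaturase, and Hk2 (0.877), a hexokinase. Not every member followed the mean profile, which its own values are part of. On the brightest probesets the correlation was 0.309 for Acaca, 0.445 for Me1 and up to 0.876, for Srebf1. Psat1 read 3.55 in CBA replicate 1 and from 4.89 to 5.77 in the other mice. Over the 9 arrays without CBA replicate 1 the correlations of these 5 genes were between 0.640 and 0.783. The arrays shared their normalization, and all 5 correlations were lower without this mouse.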

How the data were processed

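Total RNA of the inguinal mammary gland of 10 mice was hybridised to Affymetrix MOE430 2.0 (3 mice per strain) and MOE430A 2.0 arrays (2 per strain) per the labels. The methods name only MOE430A 2.0, and chip type was taken from the deposited table that holds each array. The authors deposited log2 intensities made with RMA in the affy package, which corrects background, normalizes by quantiles and summarises probes, on 22690 probesets shared by the chip types. The medians of the arrays were 4.21 to 4.30. Precision rests on 5 mice per strain. Control probesets (64) were left out. Of the other 22626, the platform annotation gave 20380 a single symbol, 691 several and 1555 none. Probesets with an unlogged strain mean above 20 in at least 1 strain (mean taken on the log2 scale) were tested two-sided by lmFit and eBayes of limma 3.58.1, run under R 4.3.3, with Benjamini-Hochberg adjustment over 11412 probesets and no covariate. The script was tested on simulated data. Array pairs with identical values numbered 0, and the median correlation of an array with its strain was 0.943 to 0.980. Chip type was called for 60 probesets (0.526%), of which 0 were members.

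Alternatives changed the filter, normalization, chip type as a block or alone, the replicate number as a block, the eBayes trend, array weights, probeset choice and mice left out. Every member probeset was reported. Pathway genes were named if called, then by an unadjusted p under 0.01, then by size, and marker genes if called or defining. Called marker genes were Krt8, at -0.83 (adjusted p = 0.0161), and Timp1, at -0.63 (adjusted p = 0.0143). Krt18, the other keratin of the secretory epithelium list, differed by 0.08 (adjusted p = 0.929). Lalba differed by 0.40 (adjusted p = 0.0845). Summed intensities of leukocyte markers ran from 345 to 549 in CBA and 333 to 1043 in QSi5 mice, of endothelial markers from 57.3 to 64.9 and 43.8 to 59.5, and of myoepithelial markers from 1644 to 3324 and 1321 to 3274. Members and lists were chosen with earlier results of these data known. The gland is called the fourth inguinal in the series record and the right inguinal in the methods.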

Additional observations from a re-analysis of the deposited data

Results flagged for a closer look

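Within each strain of 5 mice, the highest or lowest mouse was set against the others by the size of its gap relative to the whole range (Dixon's test). Over the 38 groups of member probesets and strains 6 had such a mouse (15.8%), against 6.94% of groups over all tested probesets, and chance alone gives about 1 in 20. In 4 of the 6 the mouse was CBA replicate 1, the lowest of its strain. It read 10.44 for Fasn (1423828_at), 10.31 for Thrsp (1424737_at), and 10.10 and 9.25 for the Elovl5 probesets 1437211_x_at and 1415840_at. In the other 2 it was QSi5 replicate 2, the lowest of its strain, which read 6.02 for Acly (1425326_at) and 7.11 for Scd2 (1415822_at). Probesets of 1 gene and values of 1 mouse are not independent. The cause was not tested.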

How the results depend on the processing

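Acaca was called in 21 of 22 alternatives (limma adjusted p 0.00268 to 0.295), the exception being the MOE430A 2.0 arrays alone (0.73), and its difference was 0.81 to 0.99 with single mice left out. The minimum of 50, with which the probeset was not tested, is not among the 22. These fits reuse the same mice, and over all mice the probeset passed the filter through its QSi5 values alone, so the count is a description only. Elovl5 (1437211_x_at) was called only without both CBA replicate 1 and QSi5 replicate 2 (0.59, chosen after seeing the data), and single mice left out gave 0.50 to 0.83, and 0.47 to 0.84 for 1415840_at. The number of called member probesets, 1 over all mice, was 0 with a minimum of 50 and on MOE430A 2.0 arrays, 2 without both mice and 1 to 1 with single mice left out. At an unadjusted p under 0.01 it was 2 over all mice, 1 with a minimum of 50, on MOE430A 2.0 arrays and without _x_at and _s_at probesets, 4 without both mice and 1 to 4 with single mice left out (4 without QSi5 replicate 2, and 1 without QSi5 replicate 1, 3, 4 or 5). Over all probesets 336 were called, against 146 on MOE430 2.0 and 65 on MOE430A 2.0 arrays and 215 to 415 with single mice left out (215 without QSi5 replicate 3 and 221 without QSi5 replicate 5), and 741 had an unadjusted p under 0.01, against 440 on MOE430A 2.0 arrays and 548 to 885. An arithmetic mean for the filter, also chosen after seeing the data, left every count of calls within 1.5 times.

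Of the pathway genes 1 was called (Rpia). It was 0 without the intensity filter, with median centring, on MOE430 2.0 arrays, on MOE430A 2.0 arrays, with the replicate block and without both mice, 2 with a minimum of 50 and with array weights, 3 with chip type as a block, and 0 to 3 with single mice left out (3 without CBA replicate 4, and 0 without CBA replicate 2 or 3 or QSi5 replicate 3, 4 or 5). Without CBA replicate 1 the called gene was Fads1 in place of Rpia, and without QSi5 replicate 2 it was Olah.

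The sample titles link mice of the 2 strains by replicate number only, and replicates 2, 4 and 5 also shared a chip type. The correlation of the deviations of mice with the same number was -0.37 to 0.29, and 1 of 5 pairs (replicate 2) exceeded 0.1. With the replicate block 260 probesets were called and 1 member (Acaca, 0.89, limma adjusted p = 0.0439). Of 5 mice 1 correlated best with the mouse of its own number.

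Signs turned only in differences that were not called. On MOE430A 2.0 arrays Acly 1451666_at was -0.19, Me1 1416632_at -0.34, Scd1 -0.27 and -0.91, Scd2 1415822_at -0.94, Srebf1 -0.23, Thrsp -0.075 (1424737_at) and 0.15 (1422973_a_at), Acacb -0.095 and Acss2 -0.15. On MOE430 2.0 arrays Acly 1439459_x_at was 0.19, Fasn 0.17, Elovl6 1417404_at 0.0029, Scd2 1415824_at 0.052, Adipoq 0.14 and Csn2 -0.043. The mean of a gene's probesets was 0.094 for Acly, -0.12 for Scd2 and -0.078 for Thrsp. Thrsp 1424737_at was -0.0092 with a second quantile normalization, -0.011 with median centring, -0.053 with array weights and -0.28 without both mice. Csn2 was -0.0072 with median centring, -0.028 with array weights and -0.036 without both mice, and Adipoq was 0.090 with array weights. With single mice left out, differences ran from -0.33 to 0.083 (Acly 1439459_x_at), -0.13 to 0.26 (Acly 1451666_at), -0.025 to 0.18 (Me1 1416632_at), -0.10 to 0.52 (Srebf1), -0.30 to 0.13 (Thrsp 1424737_at), -0.44 to 0.12 (Thrsp 1422973_a_at), -0.23 to 0.030 (Elovl6 1417404_at), -0.15 to 0.53 (Scd2 1415822_at), -0.26 to 0.094 (Adipoq) and -0.024 to 0.033 (Csn2). The cause was not tested.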
